A study of Mus musculus with 8 samples.

Results

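Chemokines and their receptors were examined in trigeminal ganglia of control mice and of mice transgenic for daDREAM. A gene was included where its symbol began with Ccl, Cxcl, Ccr, Cxcr or Cx3cl followed by a digit and where at least 1 probe set carried that symbol alone, which gave 47 of 18193 genes, 32 ligands and 15 receptors. Each gene was read at its brightest probe set over the 8 arrays, and its other probe sets served as a check. RNA of 4 control and 4 daDREAM samples was hybridised to Affymetrix whole-genome mouse arrays. All mice were adult males of the hybrid background C57B/6XCBA according to the labels, and the transgenic samples carry the tag tg16. Kcnip3 encodes DREAM, a repressor of transcription that responds to calcium, and daDREAM is a mutant form made to stay active. No source used here gives the promoter that drives the transgene, the exact age of the animals or the number of animals behind an array. If tg16 denotes a transgenic line, the group stands for that line alone. The spread behind each p-value is that between these samples and may be partly technical.

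Chemokines are small secreted proteins that attract leukocytes along a gradient, and they act through receptors that couple to inhibitory G proteins. They are named CC, CXC or CX3C after the spacing of their first cysteines. Some are induced in inflammation, such as the interferon-induced ligands of CXCR3, and others, such as Cxcl12, are made steadily and position cells in healthy tissue. In a sensory ganglion, chemokines can come from satellite glia, macrophages, vessels, fibroblasts and neurons, and several are known for roles in pain after nerve injury.

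Some arrays stood apart before any comparison was made. Ribosomal 18S control probes were bright on control replicates 1 and 4, where the 5′ probe set read 9.80 and 11.34 against 7.24 to 7.75 on the other 6 arrays. The female transcript Xist was bright on control replicate 3 (10.20), control replicate 4 (11.72) and daDREAM replicate 4 (11.51), against 6.10 to 6.49 elsewhere, which does not match the label of male mice. The Y-linked Eif2s3y read 8.40, 7.16 and 4.46 on these 3 arrays and 8.74 to 9.04 on the others, so the 2 control arrays carried signal of both sexes. Growth hormone (Gh), a pituitary transcript, was highest on control replicate 3 (11.15) and daDREAM replicates 3 and 4 (12.50 and 13.43), and muscle actin (Acta1) was highest on control replicates 1 and 3 (9.20 and 9.40). Markers of sensory neurons averaged from 12.02 to 12.18 on control and from 12.03 to 12.19 on daDREAM arrays, and 0 of 15 passed by limma, 0 passed an unequal-variance test per gene, and at an unadjusted p under 0.05 there were 0. Kcnip3 read 10.10 to 10.42 on control and 10.16 to 10.31 on daDREAM arrays, and no source used here says whether its probe set covers the transgene.

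Of the 47 chemokine system genes, 5 were lower in daDREAM ganglia and 0 were higher. The 5 were the eosinophil attractant Ccl11, the T cell attractants Cxcl9, Cxcl10 and Cxcl11, which share the receptor CXCR3, and Ccl5, an attractant of T cells and monocytes. The log2 differences, daDREAM minus control, ran from -0.35 to -0.87, that is from 1.27-fold to 1.83-fold lower. Genes were tested with limma on log2 values, and a gene passed at a Benjamini-Hochberg adjusted p under 0.05 over all 18193 genes. By an unequal-variance test per gene at the same threshold, 0 of the 47 members and 49 of all genes passed. A chemokine probe set with 5 symbols, which names no single gene and was not counted here, was higher by 0.42 (limma adjusted p = 0.0399 over probe sets). Among all genes 2.00% passed by limma, 1.02% as lower and 0.984% as higher. Groups did not overlap in 10 members, 9 of them lower in daDREAM, where 10.7% of all genes had such groups and 5.73% had them as lower. At an unadjusted p under 0.05 there were 16 members, 15 of them lower, against 18.2% of all genes and 9.29% as lower. The median difference of the 47 members was -0.15, and 37 of them lay below 0, while the median over all genes was 0.00 and 49.4% lay below 0.

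**Figure D1:**
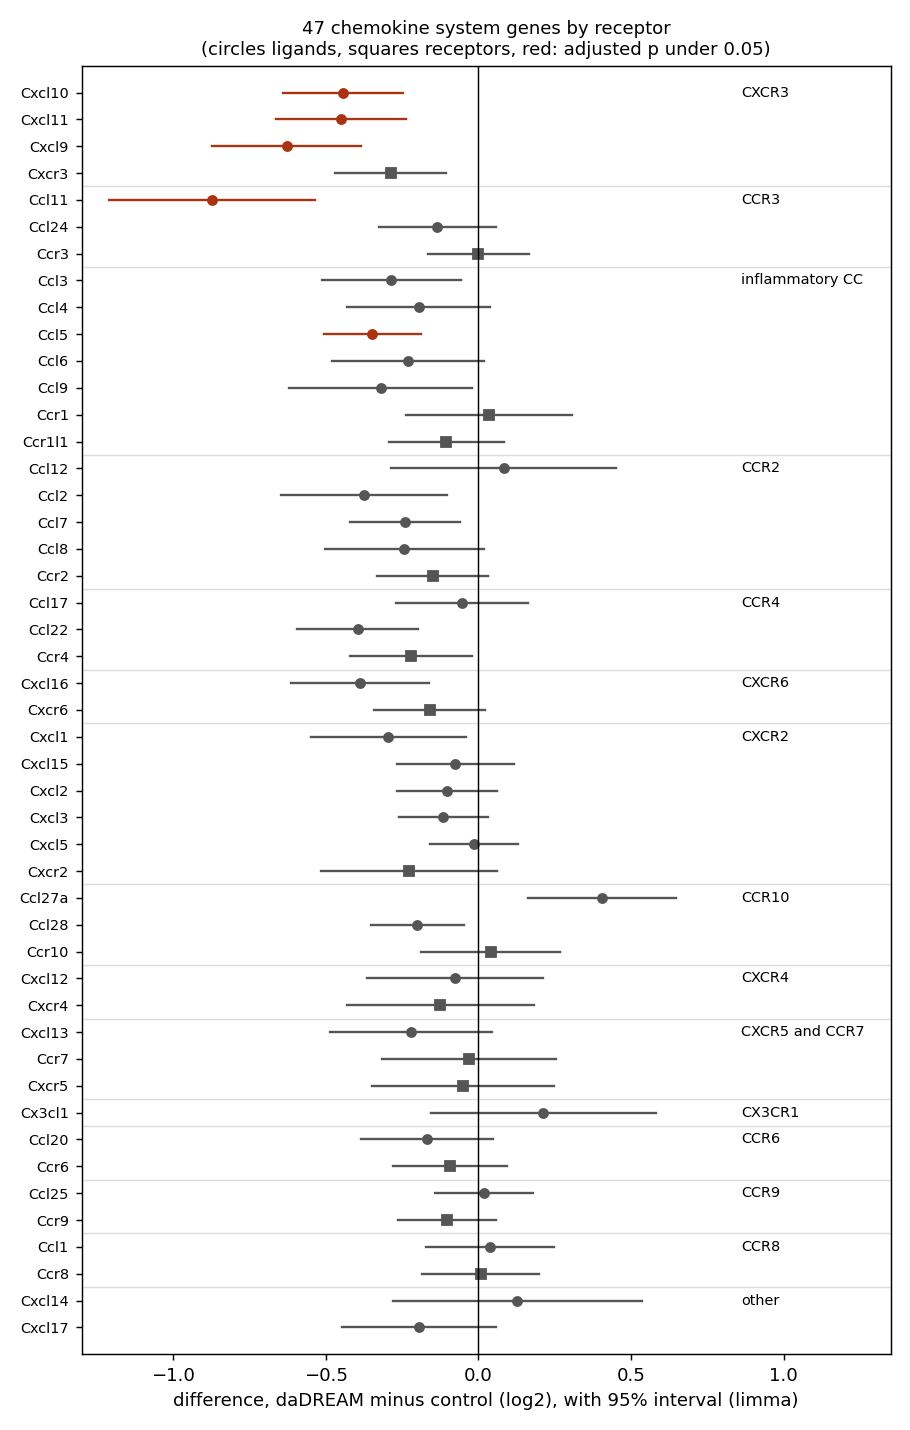
Difference in log2 RMA value, daDREAM minus control (horizontal axis), of each of the 47 genes, grouped by the receptor they bind or form, or as inflammatory CC genes; circles are ligands, squares are receptors, lines are 95% intervals from limma (4 arrays per group) and red marks an adjusted p under 0.05. The 5 red genes lie at or below -0.35, and Ccl27a is the highest at 0.41 without passing.

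The genes that passed at their brightest probe set were all ligands. Of 32 ligands, 5 passed by limma, 0 passed an unequal-variance test per gene, 14 had an unadjusted p under 0.05, and 26 values lay below 0. Of 15 receptors, 0 passed by limma, 0 passed the unequal-variance test, and 2 had an unadjusted p under 0.05, which were Cxcr3 and Ccr4. Over all genes 18.2% had such a p. Receptor signals were often dim. In 9 of 15 receptors the mean over 8 arrays was under a log2 value of 6, as it was in 7 of 32 ligands and in 19.5% of all genes. Near the low end of the scale a difference is compressed, so a change in such a gene can be missed. Whether ligands and receptors differ in how often they pass was not tested.

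The group with the most calls was CXCR3 with its ligands, which are induced by interferon gamma and draw activated T cells into tissue. All 3 ligands were lower. Cxcl9 read 6.25, 6.14, 6.23 and 5.91 on control replicates 1 to 4, and 5.37, 5.79, 5.51 and 5.35 on daDREAM replicates 1 to 4. The groups did not overlap, and the highest daDREAM array, replicate 2, lay 0.12 below the lowest control array. The means were 6.13 ± 0.16 and 5.50 ± 0.20 (SD, n = 4 arrays each), a difference of -0.63 (SE 0.11, limma adjusted p = 0.0122), or 1.54-fold lower.

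Cxcl10, also called IP-10, read 7.53, 7.52, 7.41 and 7.31 on the control arrays and 6.91, 7.22, 6.91 and 6.96 on the daDREAM arrays. Here too daDREAM replicate 2 was the highest of its group and the groups stayed apart. The means were 7.44 ± 0.10 and 7.0 ± 0.15, a difference of -0.44 (SE 0.09, limma adjusted p = 0.0276), or 1.36-fold lower.

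Cxcl11 read 6.88, 6.69, 6.68 and 7.10 on the control arrays and 6.48, 6.38, 6.34 and 6.35 on the daDREAM arrays. Control replicate 4 was the highest array and the groups did not overlap. The means were 6.84 ± 0.20 and 6.39 ± 0.06, a difference of -0.45 (SE 0.10, limma adjusted p = 0.0382), or 1.37-fold lower. RefSeq lists Cxcl11 as a transcribed pseudogene in the C57BL/6J assembly GRCm38.p6, so the array reads its RNA and says nothing of a protein.

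The receptor gene Cxcr3 itself read 7.0, 6.92, 7.14 and 7.21 on the control arrays and 6.71, 6.76, 6.75 and 6.90 on the daDREAM arrays. Its groups were separated by 0.02, and its difference of -0.29 (SE 0.08) did not pass (limma adjusted p = 0.114).

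**Figure D2:**
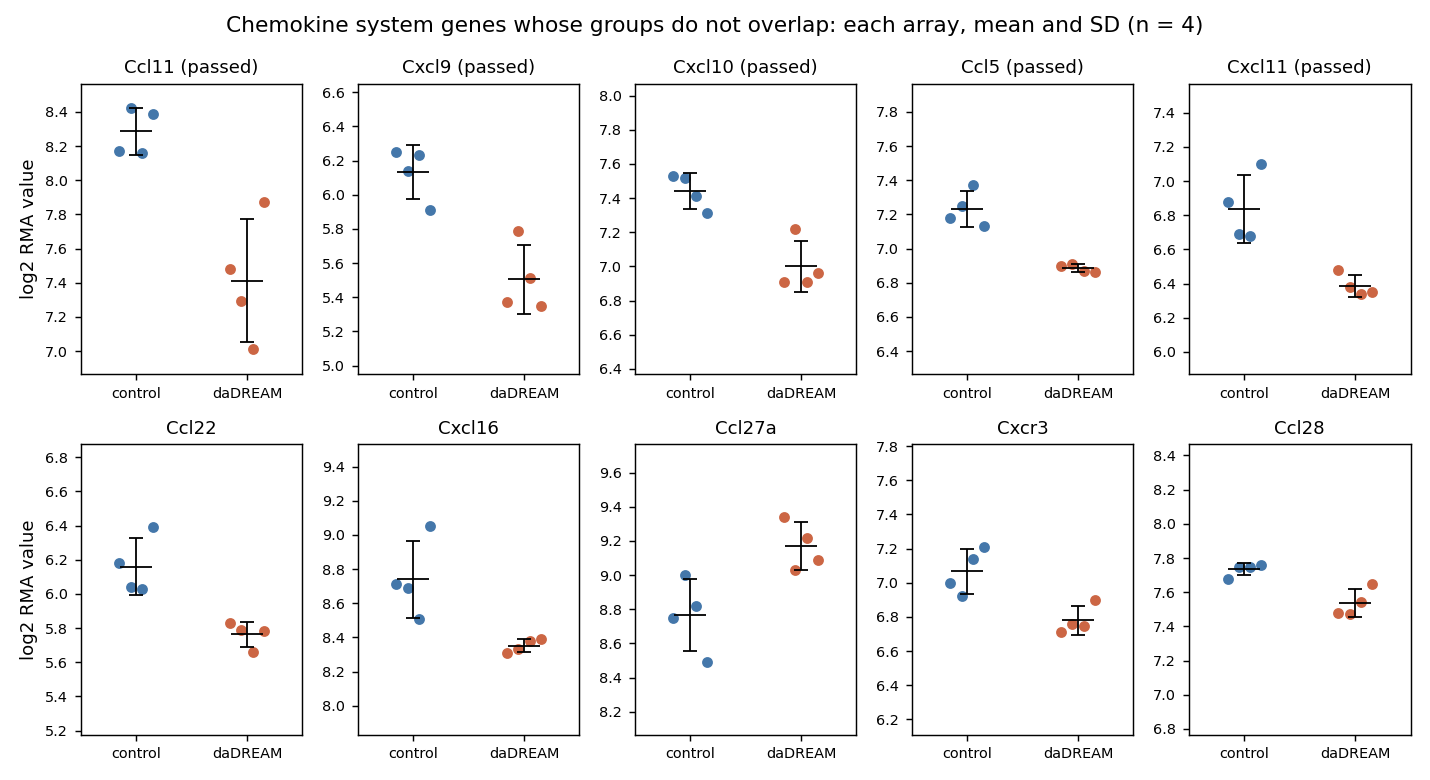
Log2 RMA values (vertical axes, each spanning 1.7 log2 units) of the 10 genes whose groups did not overlap; points are single arrays, bars are the mean and SD of 4 arrays, and "passed" marks an adjusted p under 0.05. In 9 genes every daDREAM array lies below every control array, and in Ccl27a every daDREAM array lies above.

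Cxcl9 kept its call when any 1 array was left out except control replicate 1 (adjusted p = 0.0512; range over all 23 alternatives 0.00576 to 0.265). Cxcl10 kept it without control replicate 4 or daDREAM replicate 2. Its limma adjusted p rose to 0.0876, 0.0682 and 0.0541 as control replicates 1, 2 and 3 were left out in turn, and to 0.0886, 0.0998 and 0.0747 without daDREAM replicates 1, 3 and 4 (range over 24 alternatives 0.0140 to 0.304). Cxcl11 kept it without control replicate 2, 3 or 4 and lost it without control replicate 1 (0.108) or daDREAM replicates 1 to 4 (0.0650, 0.116, 0.116 and 0.0908; range 0.0266 to 0.306). Over all these alternatives the difference stayed between -0.72 and -0.36 for Cxcl9, between -0.52 and -0.39 for Cxcl10 and between -0.51 and -0.26 for Cxcl11.

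Without the 2 18S-rich control arrays, Cxcl9 passed (limma adjusted p = 0.0444, range 0.00576 to 0.265 as above), while Cxcl10 (-0.47, adjusted p = 0.0940) and Cxcl11 (-0.30, adjusted p = 0.134) did not. Without the 3 arrays with female signal the differences were -0.64, -0.51 and -0.39 for Cxcl9, Cxcl10 and Cxcl11, without the 3 richest in Gh -0.52, -0.39 and -0.46, and without the 2 richest in Acta1 -0.52, -0.41 and -0.51, and in those settings none of the 3 passed.

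In order of start coordinate, Cxcl9, Cxcl10 and Cxcl11 lie in a row on mouse chromosome 5, and the protein-coding gene Art3 has its start coordinate between the first pair. The bases before the start sites of Cxcl9 and Cxcl10 are shown because both genes were lower and because interferon and NF-kB, a factor activated in inflammation, are known to act on chemokine promoters. Each stretch holds the 250 bases before the RefSeq start site of build GRCm38.p6, 5′ to 3′ on the gene's own strand. Capitals mark matches, on either strand, to an interferon-stimulated response element (GAAA, any 2 bases, GAAA), to the NF-kB consensus site and to a TATA box (TATAAA). The Cxcl9 stretch is chr5:92328080-92328329 and the Cxcl10 stretch is chr5:92348890-92349139, both on the minus strand.
Cxcl9: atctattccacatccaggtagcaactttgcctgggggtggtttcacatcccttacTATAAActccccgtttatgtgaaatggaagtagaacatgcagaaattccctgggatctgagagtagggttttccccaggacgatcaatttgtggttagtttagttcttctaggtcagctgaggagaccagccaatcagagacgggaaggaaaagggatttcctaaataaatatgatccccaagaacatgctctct
Cxcl10: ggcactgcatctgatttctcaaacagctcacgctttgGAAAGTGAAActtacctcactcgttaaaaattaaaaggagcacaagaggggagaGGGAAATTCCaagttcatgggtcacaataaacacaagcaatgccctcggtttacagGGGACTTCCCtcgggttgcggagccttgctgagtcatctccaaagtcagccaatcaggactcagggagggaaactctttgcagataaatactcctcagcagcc

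The Cxcl10 stretch held 1 response element and 2 NF-kB matches, and the Cxcl9 stretch held 1 TATA box match and no match to the other motifs in this window. Windows were found for 34 of the 47 genes, 38 windows in all because some genes have several start sites. The response element occurred in 2 of these windows, those of Cxcl10 and Cxcl14, and in 2.98% of all 32851 windows of the same length. NF-kB matches occurred in 8 member windows and in 3.90% of all windows, and TATA box matches in 11 and in 12.4%. The core GTCA of the DNA element that DREAM binds occurred in 33 member windows and in 80.2% of all windows, 3 times in that of Cxcl10 and 1 time in that of Cxcl9. None of the motifs overlapped another in the printed stretches. These are matches of letters and not measured binding sites.

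Ccl11, also called eotaxin, showed the largest difference of the 47 genes. It draws eosinophils through CCR3 and is made by fibroblasts, smooth muscle and endothelium in many tissues. Ccl11 read 8.17, 8.42, 8.16 and 8.39 on the control arrays and 7.48, 7.29, 7.01 and 7.87 on the daDREAM arrays. Control arrays lay close together, daDREAM arrays spread more widely with replicate 4 the highest, and the groups did not overlap. The means were 8.29 ± 0.14 and 7.41 ± 0.36, a difference of -0.87 (SE 0.15, 95% interval -1.21 to -0.54, limma adjusted p = 0.0117), or 1.83-fold lower. Left out singly, only daDREAM replicate 2 ended the call (adjusted p = 0.0502, range over 24 alternatives 0.00154 to 0.276). Ccl11 also passed without the Gh-rich arrays (-0.94, limma adjusted p = 0.0172, same range) and without those with female signal (-1.03, adjusted p = 0.0164). It did not pass without the 18S-rich arrays (-0.88, adjusted p = 0.115) or the Acta1-rich arrays (-0.99, adjusted p = 0.0653), which are all control arrays.

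The partners of Ccl11 did not show such a difference. Ccl24, a second ligand of CCR3, differed by -0.14 (SE 0.09, limma adjusted p = 0.429). Ccr3 read 4.56 in both groups, a dim signal, with a difference of 0.00 and a 95% interval of -0.17 to 0.17.

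Ccl5, also called RANTES, is a ligand of receptors that include CCR1 and CCR3. It read 7.18, 7.25, 7.37 and 7.13 on the control arrays and 6.90, 6.91, 6.87 and 6.86 on the daDREAM arrays. The daDREAM arrays differed by at most 0.05 and all lay below the control arrays. The means were 7.23 ± 0.10 and 6.88 ± 0.02, a difference of -0.35 (SE 0.07, limma adjusted p = 0.0313), or 1.27-fold lower. This call was fragile, since with 1 array left out Ccl5 passed only without control replicate 4. Otherwise its limma adjusted p was 0.0582, 0.0694 and 0.0706 when control replicate 1, 2 or 3 was left out and 0.0783, 0.0911, 0.10 and 0.0812 for daDREAM replicates 1 to 4 (range over 24 alternatives 0.00995 to 0.328). Ccl5 passed without the 18S-rich arrays (-0.42), while without the Gh-rich arrays, the Acta1-rich arrays or those with female signal it read -0.28, -0.30 and -0.32 and did not pass.

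**Figure D3:**
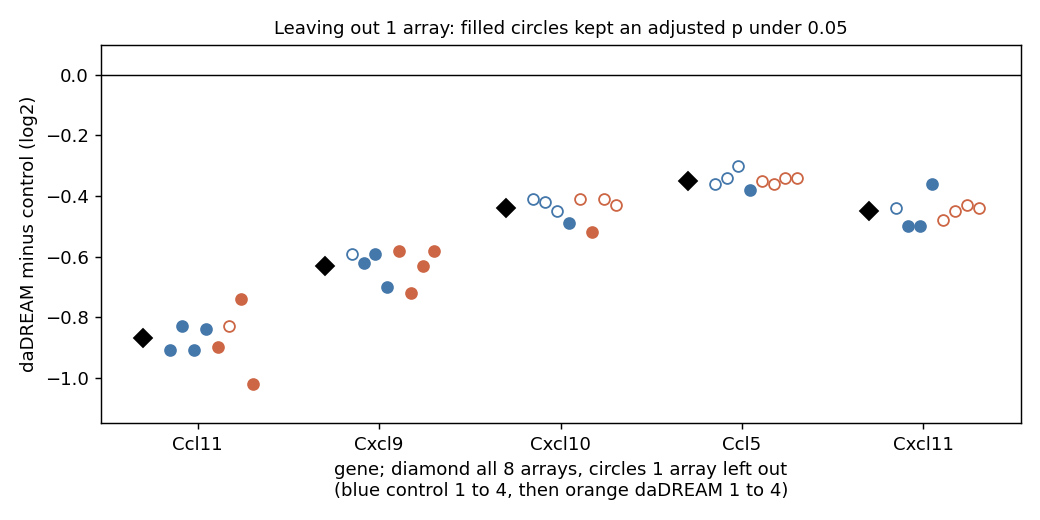
Difference in log2 RMA value, daDREAM minus control (vertical axis), of the 5 genes that passed, with all 8 arrays (diamonds) and with 1 array left out (circles, blue for a control and orange for a daDREAM array); filled circles kept an adjusted p under 0.05. The differences stay between -1.02 and -0.30, while the calls of Cxcl10, Ccl5 and Cxcl11 are lost in 6, 7 and 5 of 8 cases.

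The other inflammatory CC chemokines, with the receptor genes Ccr1 and Ccr1l1, did not pass. The macrophage inflammatory proteins Ccl3 and Ccl4 differed by -0.29 (limma adjusted p = 0.190) and -0.20 (adjusted p = 0.355), and the myeloid chemokines Ccl9 and Ccl6 by -0.32 (adjusted p = 0.250) and -0.23 (adjusted p = 0.311). The receptor Ccr1 read 4.87 and 4.90 in control and daDREAM, and its relative Ccr1l1 4.69 and 4.59. In this group 1 of 7 genes passed and 6 values lay below 0.

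Ligands of CCR2, the receptor that brings monocytes from the blood, did not pass. Ccl2 (MCP-1), which is known to rise in sensory neurons after nerve injury, read 7.02, 7.34, 6.76 and 6.90 on the control arrays and 6.47, 6.79, 6.51 and 6.75 on the daDREAM arrays. The groups overlapped by a narrow margin, with daDREAM replicate 2 above control replicate 3, and the difference was -0.38 (SE 0.12, limma adjusted p = 0.156). The related Ccl7 (-0.24, adjusted p = 0.171) and Ccl8 (-0.24, adjusted p = 0.307) were similar in size, and Ccl12 read 0.08. Ccr2 differed by -0.15 (adjusted p = 0.361).

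Ccl22 lay just outside the threshold. It is made by dendritic cells and macrophages and attracts regulatory and type 2 helper T cells through CCR4. It read 6.18, 6.04, 6.03 and 6.39 on the control arrays and 5.83, 5.79, 5.66 and 5.78 on the daDREAM arrays, without overlap and with control replicate 4 the highest. The difference was -0.40 (SE 0.09, 95% interval -0.59 to -0.20, limma adjusted p = 0.0513). At the 0.05 threshold it passed in 6 of 23 alternatives, among them the mean of probe sets, array weights and the fit without control replicate 3 (limma adjusted p from 0.0292 to 0.282 over all 23), and without the 18S-rich arrays its difference was -0.27. Ccl17, the other CCR4 ligand, differed by -0.06, and Ccr4 by -0.22 (adjusted p = 0.241).

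Cxcl16, a membrane-bound chemokine that also takes up oxidised lipoprotein, read 8.71, 8.69, 8.51 and 9.05 on the control arrays and 8.31, 8.33, 8.38 and 8.39 on the daDREAM arrays. The daDREAM arrays lay within 0.08 of each other and below all control arrays, of which replicate 4 was again the highest. The difference of -0.39 (SE 0.10) did not pass (limma adjusted p = 0.0886). It passed without control replicate 3 (-0.46, limma adjusted p = 0.0427, range over 24 alternatives 0.0427 to 0.369), and without the 18S-rich arrays it read -0.25. Its receptor Cxcr6 differed by -0.16 at a dim signal (4.59 and 4.43).

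Neutrophil attractants that act on CXCR2 showed small differences. Cxcl1 differed by -0.30 (SE 0.12, limma adjusted p = 0.218), with daDREAM replicates 1 and 2 at 8.08 and 8.19 and replicates 3 and 4 at 8.55 and 8.60, close to the control arrays at 8.58 to 8.76. Cxcl2, Cxcl3 and Cxcl5 had means from 4.00 to 4.29, at the low end of the scale, and differed by -0.10, -0.12 and -0.02 (limma adjusted p = 0.485, 0.380 and 0.925). Cxcl15 differed by -0.08 and the receptor Cxcr2 by -0.23 (adjusted p = 0.382). All 6 values lay below 0. By limma 0 passed, by the unequal-variance test 0, and 1 had an unadjusted p under 0.05, against 18.2% of all genes.

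Ccl27a and Ccl28, epithelial chemokines that share the receptor CCR10, went opposite ways without passing. Ccl27a read 8.75, 9.0, 8.82 and 8.49 on the control arrays and 9.34, 9.03, 9.22 and 9.09 on the daDREAM arrays, and was the only member whose daDREAM arrays all lay above the control arrays. Its difference was 0.41 (SE 0.11, limma adjusted p = 0.0955), and 0.26 without the 18S-rich arrays. Ccl27a has near-identical copies in the genome, so its signal cannot be assigned to 1 copy with certainty. Ccl28 read 7.68 to 7.76 on the control and 7.47 to 7.65 on the daDREAM arrays, a difference of -0.20 (SE 0.07, adjusted p = 0.173). Ccr10 differed by 0.04. The test of the difference between Ccl27a and Ccl28 was not made.

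Chemokines that serve resident cells and lymphoid tissue showed no difference that passed. Cxcl12 (SDF-1), which guides stem cells, lymphocytes and migrating neurons, read 8.89 ± 0.20 in control and 8.81 ± 0.25 in daDREAM, a difference of -0.08 (95% interval -0.37 to 0.21, limma adjusted p = 0.787), and its receptor Cxcr4 differed by -0.13 (adjusted p = 0.661). Cxcl13, which attracts B cells through CXCR5, differed by -0.22 (adjusted p = 0.358), with control replicate 4 at 7.16 and the other control arrays at 6.54 to 6.69. Cxcr5 differed by -0.05 and Ccr7, the homing receptor of lymph nodes, by -0.03. Cx3cl1 (fractalkine), which neurons present to macrophages and microglia, read 7.90 to 8.57 on control and 8.13 to 8.76 on daDREAM arrays, a difference of 0.21 (95% interval -0.16 to 0.58, adjusted p = 0.521).

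The remaining members did not pass either. Ccl20 and its receptor Ccr6, which attract cells to mucosa, differed by -0.17 and -0.09. The thymic and gut chemokine Ccl25 and its receptor Ccr9 differed by 0.02 and -0.10, and Ccl1 and its receptor Ccr8 by 0.04 and 0.01. Cxcl14, an epithelial and neural chemokine, read 7.96 to 8.52 on control and 7.98 to 8.87 on daDREAM arrays, a difference of 0.13 (95% interval -0.28 to 0.53). Cxcl17, a mucosal chemokine, differed by -0.20. The smallest limma adjusted p of these 8 genes was 0.387, for Cxcl17.

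**Figure D4:**
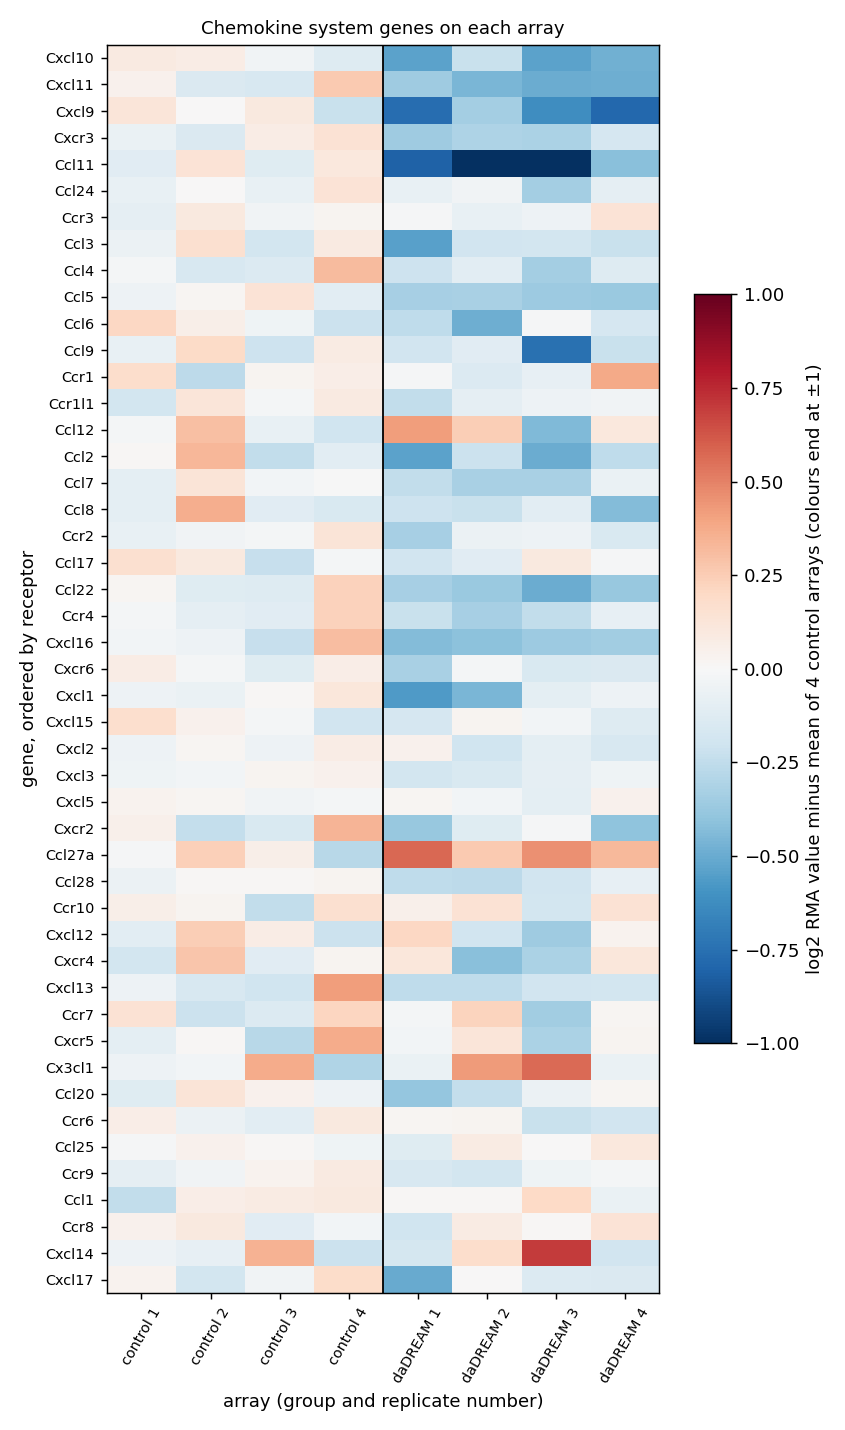
Each of the 47 genes (rows, ordered by receptor as in the plot of differences) on each of the 8 arrays (columns), coloured by the log2 RMA value minus the mean of the 4 control arrays; blue is lower and red is higher. Ccl11 and Cxcl9 are blue on all 4 daDREAM arrays, control replicate 4 is red for Cxcl11, Ccl22, Cxcl16 and Cxcl13, and Ccl27a is red on all 4 daDREAM arrays.

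Other probe sets bore on 17 of the 47 genes, with 27 probe sets beyond the representing ones. Of these 27, 0 passed with limma over all probe sets, 8 had an unadjusted p under 0.05, and 19 read below 0. Over all genes, read at 1 probe set each, 18.2% had such a p and 49.4% lay below 0. Ccl11, Cxcl10 and Ccl5 have 1 probe set each. The second probe set of Cxcl9 read 4.67 and 4.58 (difference -0.085, limma adjusted p over probe sets 0.668) and that of Cxcl11 4.46 and 4.39 (-0.07, adjusted p = 0.656), both at the low end of the scale. With the mean of a gene's probe sets, Cxcl9 read -0.36 and passed (adjusted p = 0.0156, range over its alternatives 0.00576 to 0.265), while Cxcl11 read -0.26 and did not (adjusted p = 0.0712).

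For Cxcl12 the probe sets did not move together. Its representing probe set read -0.08, while another of nearly the same brightness, with control mean 8.59 and daDREAM mean 9.07, read 0.48 (adjusted p over probe sets by limma 0.106), and the dimmest read 0.06. Cxcl14 gave 0.13 at the brighter and 0.71 at the dimmer probe set (adjusted p = 0.158). Ccr9 has 5 probe sets, all below 0, from -0.07 to -0.41. Groups did not overlap at 2 of them, and the lower of these had an adjusted p of 0.0554 over probe sets. Where each gene was read at the probe set of largest interquartile range, Ccr9 was represented by that one and passed (-0.41, limma adjusted p = 0.048, range over its alternatives 0.048 to 0.773), the only receptor to pass in any setting. No direction is given for Cxcl12.

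**Figure D5:**
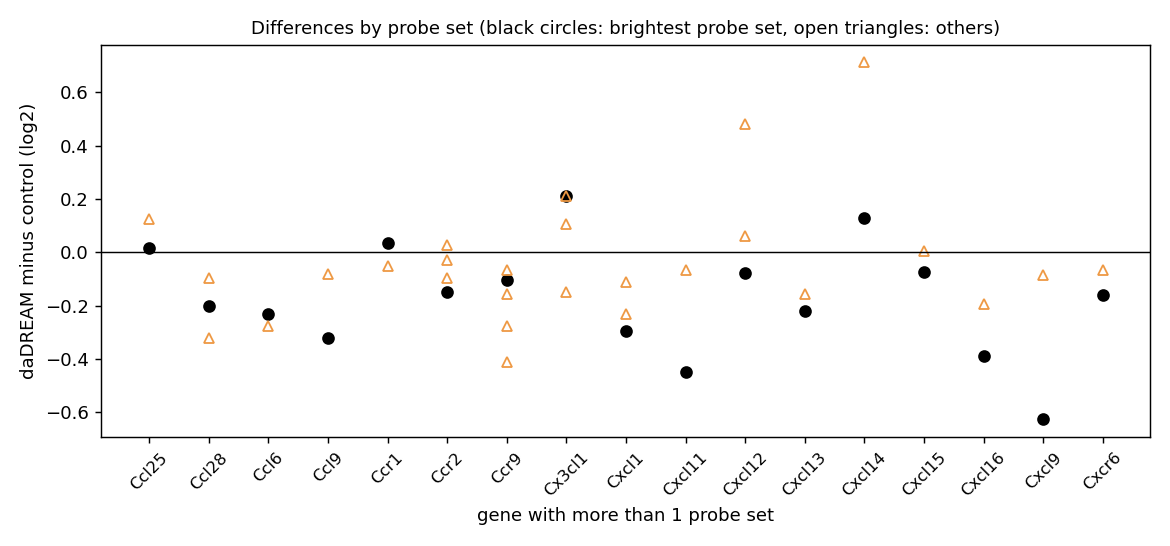
Difference in log2 RMA value, daDREAM minus control (vertical axis), of every probe set of the 17 genes with more than 1; black circles are the probe sets that represent a gene and open triangles are the others. The second probe sets of Cxcl9 and Cxcl11 lie near 0, and those of Cxcl12 reach 0.48 against -0.08 for the circle.

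Many chemokine genes lie in clusters that arose by duplication, and the 5 lower genes fell into 3 of them. Among members with at most 1 other protein-coding gene between neighbours in order of start coordinate, Cxcl9, Cxcl10 and Cxcl11 formed a group of which 3 of 3 passed. On chromosome 11, the run Ccl2, Ccl7, Ccl11, Ccl12, Ccl8 and Ccl1 held 1 gene that passed, Ccl11, and its differences ran from -0.87 to 0.08. The run Ccl5, Ccl9, Ccl6, Ccl3 and Ccl4 held Ccl5 as its 1 gene that passed, and all 5 values lay between -0.35 and -0.20. The run Cxcl3, Cxcl15, Cxcl1 and Cxcl2 on chromosome 5 held values from -0.30 to -0.08, and the receptor run Ccr9, Cxcr6, Ccr1, Ccr1l1, Ccr3 and Ccr2 on chromosome 9 values from -0.16 to 0.04, with 0 that passed in either by limma or by the unequal-variance test. Ccl22, Cx3cl1 and Ccl17, neighbours on chromosome 8, read -0.40, 0.21 and -0.06.

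Genes of the chemokine system whose symbols fall outside the naming pattern gave little. Of 18 measured, 0 passed by limma and 0 passed the unequal-variance test. At an unadjusted p under 0.05 there were 5, against 18.2% of all genes, and the median was -0.09. Ackr1, the scavenging receptor of venules and red cells, read 0.21 (limma adjusted p = 0.205), and Cx3cr1, the fractalkine receptor of macrophages, -0.09 (adjusted p = 0.739). Sdc4, a heparan sulfate proteoglycan that binds chemokines, read 10.03, 8.56, 8.05 and 10.06 on the control arrays and 7.60 to 8.13 on the daDREAM arrays, a difference of -1.32 (adjusted p = 0.120). Its 2 high arrays were control replicates 1 and 4, the 18S-rich ones.

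Of 26 genes listed for signalling below chemokine receptors, some of which relay a signal and some of which limit it, 2 were higher. Over all genes 2.00% passed, 0.984% as higher. Elmo1, which links receptors to Rac and cell movement, rose 1.42-fold (9.76 ± 0.14 to 10.27 ± 0.06, limma adjusted p = 0.00677), and Rgs2, which shortens G protein signals, rose 1.42-fold (8.80 ± 0.22 to 9.31 ± 0.10, adjusted p = 0.0376). The other 24 did not pass and the list's median was 0.06. Of 28 regulators of interferon and NF-kB signalling, activators and inhibitors among them, 0 passed by limma and 0 passed the unequal-variance test. At an unadjusted p under 0.05 there were 6, against 18.2% of all genes. Groups did not overlap in 3, against 10.7% of all genes. The median of the list was -0.03. Irf1, an activator of the CXCR3 ligands, was among the 3 without overlap and read -0.18 (SE 0.07, adjusted p = 0.204). Irf7 read -0.32 (adjusted p = 0.155), the interleukin 1 receptor Il1r1 -0.29 (adjusted p = 0.159), the NF-kB inhibitor Nfkbia -0.37 (adjusted p = 0.0927), and the adaptor Myd88, on the other side of 0, 0.25 (adjusted p = 0.169). Ifng, dim at 4.77 and 4.86, read 0.09 (adjusted p = 0.584).

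In a whole ganglion, fewer cells of a type and less RNA per cell cannot be told apart, so marker genes of leukocytes are given beside the chemokines. Of 13 markers of T and NK cells, 0 passed by limma, 0 passed the unequal-variance test and 3 had an unadjusted p under 0.05, and 12 values lay below 0, with a median of -0.14. Their mean level ran from 6.21 to 6.48 on control and from 6.15 to 6.21 on daDREAM arrays, where before rounding every daDREAM array lay below every control array by a narrow margin. Cd3e, a part of the T cell receptor complex, read -0.25 (adjusted p = 0.158), and Il2rb -0.28 (adjusted p = 0.195). These 2 of the 13 had groups that did not overlap, against 10.7% of all genes. At an unadjusted p under 0.05 the share of all genes was 18.2%, and 2.00% of all genes passed by limma. Of 18 macrophage markers 1 was lower, Ly86 (-1.54, limma adjusted p = 2.98e-05), while 10 of the values lay above 0, the list's median was 0.04, and the mean level ran from 8.00 to 8.26 and from 7.89 to 8.09.

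For each list that follows, the shares over all genes were 2.00% past limma, 18.2% at an unadjusted p under 0.05 and 10.7% without overlap. Of 10 dendritic cell markers 0 passed by limma, with 0 by the unequal-variance test and 1 at an unadjusted p under 0.05. Their median was -0.14, and the mean level ran from 7.65 to 7.97 and from 7.52 to 7.77. The integrin gene Itgax read -0.27 (adjusted p = 0.107) and was the 1 of the 10 with groups that did not overlap, against 10.7% of all genes. Of 8 B cell markers 1 was lower, Ighm (-1.24), with a median of -0.05 and mean levels from 6.57 to 6.87 and from 6.42 to 6.62. Of 11 granulocyte markers 3 were higher, S100a8, S100a9 and Lcn2, with mean levels from 6.24 to 6.54 and from 6.54 to 6.70. This list did not move together. Its median was 0.18, with 6 values above 0 and 5 below, among the latter Elane (-0.22, limma adjusted p = 0.226). Of 12 endothelial markers 1 was higher, the tight junction gene Cldn5 (0.57, adjusted p = 0.00975), with mean levels from 7.61 to 7.70 and from 7.57 to 7.82. The median of the 12 was -0.05, with 7 values below 0 and 5 above. Of 10 fibroblast and meningeal markers 0 passed by limma, with 0 by the unequal-variance test and 4 at an unadjusted p under 0.05, and mean levels ran from 10.85 to 11.31 and from 10.83 to 11.66. These 4 went both ways. The matrix genes Dcn and Lum each read -0.50 (adjusted p = 0.0718 and 0.214), Dcn with groups that did not overlap, while Igf2 read 0.46 (adjusted p = 0.142) and Aldh1a2 0.36 (adjusted p = 0.239). Dcn and Lum read below 0 as Ccl11 did, while over the 10 markers the median was 0.05 and 6 values lay above 0. The part of these markers in the Ccl11 difference was not tested. Of 9 markers of satellite glia and Schwann cells 0 passed by limma, with 0 by the unequal-variance test and 1 at an unadjusted p under 0.05, and mean levels ran from 12.70 to 12.75 and from 12.70 to 12.84; Fabp7 had the smallest p (0.42, adjusted p = 0.217).

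Tissue next to the ganglion also varied. The mean level of 13 central nervous system markers ran from 8.64 to 9.35 on control and from 9.46 to 10.04 on daDREAM arrays, without overlap. By limma 1 passed, Aqp4, as higher, and by the unequal-variance test 0. All 13 values lay above 0, with a median of 0.67. At an unadjusted p under 0.05 there were 8, against 18.2% of all genes. Groups did not overlap in 2, against 10.7% of all genes. These were Aqp4 and Gfap (1.59, limma adjusted p = 0.0660). For 10 genes listed as skeletal muscle markers the mean level ran from 6.76 to 8.44 and from 6.75 to 6.79. Of these 0 passed by limma, 7 had an unadjusted p under 0.05, 3 had groups without overlap, and 9 values lay below 0. The 1 above 0 was Pvalb (0.34), which read 11.57 to 11.86 on control and 11.88 to 12.30 on daDREAM arrays and so raised the mean levels. For 7 pituitary markers the mean level ran from 6.74 to 7.81 and from 6.55 to 9.0. The log2 scale has no 0, and no marker is listed at 0. The part of these cells, tissues and arrays in the chemokine differences was not tested.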

How the data were processed

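The deposited values are log2 RMA values of 8 arrays; the submitters' processing notes name RMA and the affy package. RMA removes background, forces all arrays to 1 distribution and fits a value per probe set, so a shift shared by most genes would not show. No source used here gives versions or probe set definitions. Of 45101 probe sets, 64 were controls. GEO's platform annotation gave 34945 a single symbol, 932 several and 9160 none, and 4 probe sets of chemokine genes with several symbols were set aside.

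Each of 18193 genes was represented by its brightest single-symbol probe set and compared between groups by limma 3.58.1 under R 4.3.3 (eBayes after lmFit, two-sided, no covariate, Benjamini-Hochberg over all genes). The script was tested on simulated data. Means carry the SD of 4 arrays, and 95% intervals come from limma. The number of arrays limits the precision.

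Same-numbered control and daDREAM arrays had correlations of their deviations of 0.21, 0.0063, 0.33 and 0.36. Arrays of unlike number had -0.28 to 0.31, so the highest values, 0.33 and 0.36, were of same-numbered arrays. The numbers were not taken as pairs because the labels name none, and these correlations do not settle whether arrays were paired. Promoter windows and gene order are those of RefSeq, GRCm38.p6. No build is named for the arrays. Figures were drawn with matplotlib 3.10.9.

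Named were all members, with most detail for those that passed, that had groups without overlap or the 10 smallest p-values, and for members of known role, and in most lists the genes that passed or 1 or 2 with the smallest p. Cx3cr1, Irf1, Ifng, Il1r1, Myd88, Lum and Aldh1a2 were named after their values were seen. The members, the lists and the arrays left out in groups were chosen with earlier results of these data known. Alternatives covered the replicate block, normalization, filters, probe sets, variance models, array weights, thresholds and left-out arrays.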

Additional observations from a re-analysis of the deposited data

Results flagged for a closer look

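In 5 of 94 groups of 4 arrays, 1 array lay far from the other 3 of its group by Dixon's criterion, and chance alone flags about 1 in 20 such groups. These were Cxcl10 on daDREAM replicate 2 (7.22, the others 6.91 to 6.96), Ccl3 on daDREAM replicate 1 (5.04), Ccl8 on control replicate 2 (7.37), Ccl28 on control replicate 1 (7.68) and Ccl1 on control replicate 1 (6.54). Without daDREAM replicate 2 the Cxcl10 difference was -0.52 (limma adjusted p = 0.0140, range over alternatives 0.0140 to 0.304).

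Outside the 47 genes, 2 probe sets that carry 5 symbols each, and so name no single gene, lay higher on every daDREAM array than on any control array, by 0.34 (limma adjusted p = 0.101 over probe sets) and by 0.42 (adjusted p = 0.0399).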

How the results depend on the processing

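The 5 lower members were 0 with the unequal-variance test, 0 at an adjusted p under 0.01, 8 (7 lower, 1 higher) at 0.1, and 1 to 5 with 1 array left out, the fewest without control replicate 1. Renewed quantile normalization ended the call of Cxcl11 (limma adjusted p = 0.0523) and the limma-trend prior that of Ccl5 (0.0505), which left 4 in each, as did a filter on a mean of 6, under which Cxcl9 was not tested. They were 1 without the 3 arrays with the most Gh, 2 without the 2 with the most 18S, 0 without the 2 with the most Acta1 and 1 without the 3 with female signal; fewer arrays enter these fits. Members without overlap then numbered 23, 15, 19 and 21, where 32.4%, 21.4%, 23.3% and 30.8% of all genes had such groups, and 10 to 14 with 1 array left out, where 13.3% to 16.7% had them; fewer arrays separate more easily. All genes past the test numbered 98, 227, 171 and 213 in those settings, 49 with the unequal-variance test, 181 and 703 at 0.01 and 0.1, 817 with the probe set of largest interquartile range (7 members, with Ccl22 and the receptor Ccr9 added) and 229 to 349 with 1 array left out. With the replicate number as a block, 672 genes and 6 members passed, Ccl22 being added. The labels name no pairs and not every array correlated best with its own number, so this was not read as a paired result.

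The 5 genes that passed kept their direction in each alternative that tested them, 23 for Cxcl9 and 24 for the other 4. Among 12 members the sign of a small difference turned, and none of these values passed. With renewed quantile normalization Ccr7, Cxcl5 and Cxcr5 read 0.03, 0.02 and 0.01. With the mean of probe sets Ccr1 read -0.01 and Cxcl12 0.15, and with the probe set of largest interquartile range Cxcl12 read 0.48. With array weights Ccl12, Ccr7 and Cxcr5 read -0.01, 0.05 and 0.02. Without the arrays with the most Gh, Ccl25, Ccr1, Ccr7, Ccr8 and Cxcl12 read -0.01, -0.07, 0.06, -0.10 and 0.03. Without those with the most 18S, Ccl1, Ccl12, Ccl17, Ccl25, Ccr7, Cxcl14 and Cxcr5 read -0.04, -0.03, 0.01, -0.01, 0.15, -0.01 and 0.09. Without those with the most Acta1, Ccl1, Ccr10 and Ccr8 read -0.05, -0.05 and -0.03. Without those with female signal, Ccl12, Ccl25, Ccr1, Ccr10 and Ccr8 read -0.06, -0.03, -0.03, -0.04 and -0.11. The cause was not tested. With 1 array left out the differences ran, for Ccl1 -0.05 to 0.07, for Ccr7 -0.11 to 0.08, for Ccr1 -0.08 to 0.09, for Ccr10 -0.04 to 0.11, for Ccr8 -0.04 to 0.08, for Cxcr5 -0.14 to 0.07, for Ccl12 -0.03 to 0.26, for Ccl25 -0.01 to 0.07, for Cxcl12 -0.17 to 0.01, for Cxcl14 -0.06 to 0.24, for Cxcl5 -0.03 to 0.01.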
